A study of Mus musculus with 2 samples.

Results

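Replicating S-phase tumour cells of mouse small cell lung cancer are described here as the cells with the highest share of transcripts from 10 genes of DNA replication. Of the barcodes with at least 500 detected genes and at most 10% mitochondrial counts, those with 5 or more counts over the delta-cell genes Hhex, Isl1, Hoxb8, Sfrp5 and Gfra4 were set aside. Barcodes with 15 or more counts per 10000 over Mki67, Top2a, Cdk1, Ube2c, Birc5, Tpx2, Nusap1, Cenpf, Ccnb2 and Cdc20 were set aside as mitotic. The remaining cells, called eligible, were ordered in each library by the share of their counts from Pcna, Mcm2, Mcm4, Mcm5, Mcm6, Ccne1, Ccne2, Clspn, Gins2 and Tyms, and the highest 15% were kept. This gave 430 of 3726 barcodes (11.5%) in the vehicle library and 367 of 4254 (8.63%) in the cisplatin library, or 797 of 7980 in all. The remaining 2439 vehicle and 2082 cisplatin eligible cells are called other cells.

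The tumours grew in lungs of mice of mixed strain that carried floxed alleles of tumour suppressors, including Rb1, Cre recombinase under tamoxifen control at Calca, the CGRP gene (CGRPCreER/+) and a Rosa26 mTmG reporter, which marks recombined cells and their offspring with GFP. Both groups carried these alleles. The vehicle group received saline and the other group cisplatin, a drug that crosslinks DNA, at 5 mg per kg, dosed at intervals of 4 days over 2 weeks. Tumours were dissociated with enzymes, live GFP-positive cells were sorted, and 5000 cells were loaded for each library. The Cre driver starts recombination in Calca-expressing cells of the lung and the sort keeps only recombined cells, so the material covers that lineage. The library protocol speaks of cisplatin/etoposide and a title of chemotherapy, so it is unclear whether the treated mice also received etoposide. Ages and animal numbers were not given in the sources used here. Because each treatment has 1 library, nothing could be checked against replicates or tested, and every interval below is an exact 95% interval that covers counting error only.

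A dividing cell must copy its genome once and only once in S phase. Origins are licensed in G1 when ORC, CDC6 and CDT1 load the MCM2-7 helicase, and they fire when CDK2 with cyclin E and the CDC7 kinase recruit CDC45 and GINS to it. Polymerases tethered by the PCNA clamp then copy both strands, ribonucleotide reductase and thymidylate synthase feed them, and chromatin factors rebuild nucleosomes behind the fork. Many of the genes are transcribed by E2F factors, which the retinoblastoma protein holds back until cyclin-dependent kinases inactivate it. Small cell lung cancer is a neuroendocrine tumour in which RB1 is characteristically lost.

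Promoters of several licensing genes hold short E2F-type sequences. In RefSeq windows (GRCm38.p6) from 250 bases before to 50 bases after a transcription start, the 8-base E2F strings TTTCCCGC, TTTCGCGC, TTTGCCGC and TTTGGCGC were searched on both strands. A string was present in 8 of 18 windows of the origin licensing list (44.4%), 6 of 17 of the chromatin assembly list (35.3%) and 8 of 28 of the polymerase list (28.6%), against 744 of 32851 of all windows (2.26%). Among the 10 genes that chose the cells, 7 had a window and 3 of those 7 windows held a string. The nucleotide supply list had none in 19 windows and the neuroendocrine list none in 22, while 4 of 13 windows of the MYC and ribosome biogenesis list held one (30.8%). The windows of Mcm2, also a helicase subunit, and of Pcna, Ccne1 and Tyms held no string and are not shown. The 3 windows shown were taken from those with a string, for genes of successive steps. These genes are the helicase subunits Mcm5 and Mcm6, loaded at licensing, and the polymerase alpha subunit Pola1, which makes the first DNA. The sequences shown are the 160 bases before the start, in lower case with the E2F strings in capitals. They lie at chr8:75109349-75109508 (plus strand), chr1:128359706-128359865 (minus strand) and chrX:93632156-93632315 (minus strand).
Mcm5: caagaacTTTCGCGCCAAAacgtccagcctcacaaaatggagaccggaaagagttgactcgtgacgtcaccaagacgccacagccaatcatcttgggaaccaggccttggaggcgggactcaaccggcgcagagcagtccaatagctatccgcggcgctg
Mcm6: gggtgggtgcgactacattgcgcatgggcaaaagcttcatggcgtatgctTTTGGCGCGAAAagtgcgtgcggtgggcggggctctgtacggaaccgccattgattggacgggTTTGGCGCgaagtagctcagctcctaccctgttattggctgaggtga
Pola1: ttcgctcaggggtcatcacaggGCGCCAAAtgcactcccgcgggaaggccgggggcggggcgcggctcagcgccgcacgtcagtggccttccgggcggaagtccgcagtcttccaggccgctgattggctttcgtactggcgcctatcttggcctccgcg
In Mcm5 a pair of overlapping strings begins 153 and 149 bases before the start, at positions -153 and -149. In Mcm6 a pair of overlapping strings begins at -110 and a further string lies at -47. Pola1 holds a single string, in reverse orientation, at -138. Of the windows of all genes outside the rule that were higher in S-phase cells in both libraries (the comparison given below), 103 of 973 held a string (10.6%), against 433 of 10648 for all measured genes (4.07%) and 8 of 500 for genes lower in S-phase cells (1.60%). The G2 and mitosis list differed, with 1 of 26 windows holding an E2F string (3.85%), 23 of 26 the CCAAT box (88.5%, against 37.4% of all windows) and 21 of 26 the cell cycle element TTTGAA or TTCGAA, called CHR (80.8%, against 19.2%). A matching string describes the letters of a window and does not show that a factor binds there.

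The score, in counts of the 10 genes per 10000 counts of the cell, ran without a gap from other to S-phase cells, so the class is a range and not a separate type. The lowest member scored 21.1 in vehicle and 20.2 in cisplatin, the same to 3 digits as the highest cell left out in each library. Within 10% of the limit lay 83 members and 103 other cells in vehicle, and 52 members and 51 other cells in cisplatin. The highest scores were 61.7 and 59.3. Members held a median of 28 rule-gene counts in vehicle and 18 in cisplatin, and 7 cisplatin members and 0 vehicle members held 5 or fewer. Among the mitotic cells that the rule removes, 96 in vehicle (12.2%) and 150 in cisplatin (14.7%) scored at or above the limit. Some cells with high scores thus lie outside the class, and whether they were late in replication was not tested.

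**Figure D1:**
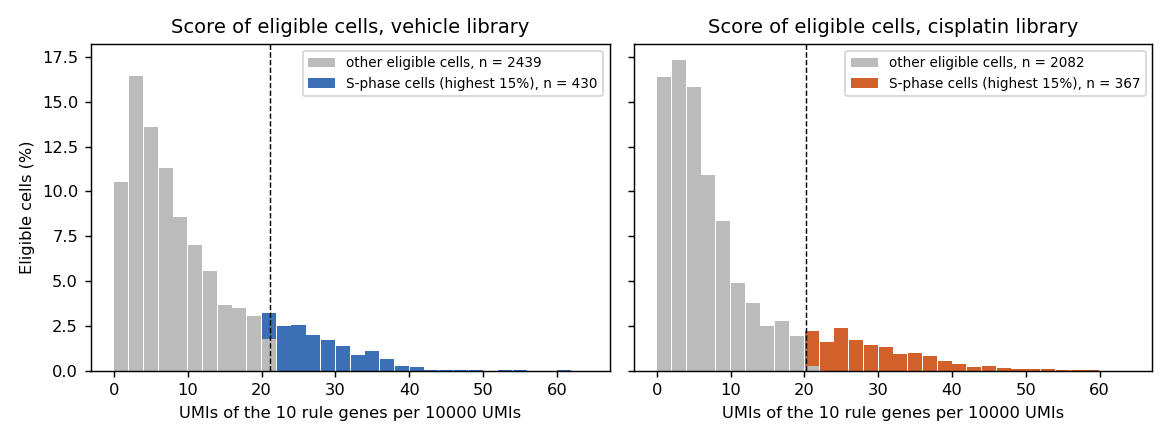
Distribution of the score over the eligible cells of the vehicle (left) and cisplatin (right) library. The x axis is counts (UMIs) of the 10 rule genes per 10000, the y axis the percent of eligible cells, coloured bars are the 430 and 367 S-phase cells, grey bars the other cells, and the dashed line is the lowest member at 21.1 and 20.2; the bars fall continuously across it.

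Depth moved with the class. S-phase cells had a median of 10453 unique molecular identifiers (UMIs, the counted transcripts) in vehicle against 7669 in other cells, and 6448 against 4774.5 in cisplatin, where cells of both classes held fewer UMIs. Median detected genes were 3811.5 against 3067 in vehicle and 2664 against 2119.5 in cisplatin. The mitochondrial share was 2.69% against 2.87% and 2.95% against 3.72%. How far depth per cell sets the levels below was not tested beyond 1 restriction, chosen after seeing the data. Other cells below the lower quartile of S-phase UMIs (6957.75 in vehicle, 5358 in cisplatin) were removed, which does not match the depths. Of 9863 genes then measured, 824 were higher and 364 lower in both libraries, against 979 and 509 of 10788 without the restriction.

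The 10 neuroendocrine markers used for this tumour, Chga among them, summed to 6210.0 counts per 1000000 (CPM) in vehicle S-phase cells and 7257 CPM in cisplatin S-phase cells. Markers of T, B, myeloid, neutrophil, endothelial, fibroblast, alveolar, ciliated, erythroid and tuft cells each summed to between 0.389 and 51.1 CPM per set in S-phase cells. Club cell markers were the exception, with 158 CPM in vehicle members and 507 CPM in cisplatin members, nearly all from the secretoglobin Scgb1a1. Col1a1, Col3a1, Pdgfra, Lum, Pou2f3 and Trpm5 had no UMI in S-phase cells of either library, a count that allows up to 0.678 CPM in vehicle members and 1.17 CPM in cisplatin members. Members with UMIs of 3 or more markers of another cell type numbered 6 in vehicle and 2 in cisplatin. No barcode was removed as a doublet, and 4 and 3 members had over 3 times their library's median UMIs. The libraries shared 23 barcodes, and 1 of these was a member in both.

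The 10 rule genes were high in the members by construction, and their levels are given without a test. Pcna, the sliding clamp (chromosome 2, 132249162 to 132253314), was at 754 CPM in S-phase cells and 186 CPM in other cells of vehicle, and at 945 and 162 CPM in cisplatin. It made up 26.7% of the members' rule-gene UMIs in vehicle and 32.0% in cisplatin, the largest part of the 10. Ccne1, cyclin E1 (chromosome 7, 38097984 to 38107534), was at 177 against 32.5 CPM and at 126 against 10.8 CPM. Its partner cyclin Ccne2 (chromosome 4, 11191351 to 11204779) was at 337 against 64.5 CPM and at 434 against 59.4 CPM. The E cyclins thus lay in opposite order in S-phase cells, Ccne1 lower and Ccne2 higher in cisplatin than in vehicle. Clspn, claspin, which relays the checkpoint signal from stalled forks (chromosome 4, 126556935 to 126593903), was at 177 against 18.5 CPM and at 98.5 against 8.43 CPM. Mcm5, a helicase subunit (chromosome 8, 75109569 to 75128439), was at 193 against 57.3 CPM and at 162 against 38.6 CPM. Median rule genes with a UMI were 9 of 10 per vehicle member and 7 of 10 per cisplatin member, against 3 and 2 in other cells.

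Each rule gene was also read in cells chosen by the other 9. The left-out gene was higher in the chosen cells for all 10 genes in both libraries. The folds ran from 1.64 for Mcm2 (interval 1.53 to 1.75) to 7.11 for Clspn (6.29 to 8.03) in vehicle, and from 1.89 for Mcm2 (1.72 to 2.08) to 9.22 for Ccne1 (7.53 to 11.3) in cisplatin. Clspn in cisplatin was at 9.21-fold (7.32 to 11.6), beside Ccne1. The smallest folds were those of Mcm2, Mcm4 and Mcm6: Mcm4 stood at 1.73 in vehicle and 2.02 in cisplatin, and Mcm6 at 1.94 and 2.22. Mcm5 stood higher, at 2.87 and 3.65, near Gins2 at 2.73 and 3.87. Pcna stood at 3.26 and 4.27, Tyms at 3.55 and 4.85 and Ccne2 at 4.18 and 5.70. With every cell thinned to 3000 UMIs the folds still ran from 1.59 to 5.25 in vehicle and from 1.84 to 7.22 in cisplatin. The genes that choose the cells were therefore read together in single cells, with the E cyclins and Clspn apart from Mcm2, Mcm4 and Mcm6 in the size of the difference.

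Beyond the rule, a gene was counted as higher or lower in S-phase cells when its CPM differed at least 1.5-fold from other cells in both libraries, among 10788 genes with 50 or more UMIs over both classes in each library. By that criterion 979 genes were higher (9.07%), the 10 rule genes among them, and 509 were lower (4.72%). These percentages are the background for the lists below. The lists belong to the process that chose the cells, so their counts describe the class and are no independent evidence about it. Log2 ratios are S-phase over other cells after adding 1 CPM, and their median over all measured genes was -0.03 in both libraries.

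Origin licensing genes without the rule's MCM members were higher for 9 of 13 measured and lower for 0, with median log2 ratios of 0.85 in vehicle and 1.17 in cisplatin. Cdc6, the loader of the helicase (chromosome 11, 98907801 to 98923940), was at 66.9 CPM in vehicle S-phase cells (59.5 to 74.9) and 9.02 in other cells (7.72 to 10.5). In cisplatin it was at 51.0 CPM (42.6 to 60.5) and 5.29 (4.03 to 6.82), so its intervals did not overlap between the classes in either library. Cdt1, the second loading factor, was at 119.5 against 41.1 CPM in vehicle and 89.9 against 25.3 CPM in cisplatin. Gmnn, geminin, which binds CDT1 and blocks relicensing, was also higher, at 207 against 76.9 and 199.7 against 55.6 CPM. Mcm7, a helicase subunit outside the rule, was at 231 against 73.1 and 183 against 59.3 CPM. Loader, inhibitor and helicase genes of licensing were thus higher together.

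All 12 measured genes of origin firing and the fork were higher, with medians of 1.103 and 1.252. Cdc45, part of the active helicase, was at 44.7 CPM (38.7 to 51.4) against 8.59 in vehicle and 47.5 CPM (39.4 to 56.7) against 9.23 in cisplatin. Of the polymerase, clamp loader and ligation genes, 24 of 28 were higher and 0 lower, with medians of 1.22 and 1.29. Pola1, whose promoter is shown above, was at 123 against 34.0 CPM and 89.1 against 21.6 CPM. Chtf18, which loads PCNA for sister chromatid cohesion, was at 18.8 against 3.11 and 16.0 against 2.33 CPM. Lig1, the ligase that joins Okazaki fragments, was at 365 against 125 and 273 against 67.7 CPM. The fork genes therefore followed the licensing genes in both libraries.

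Nucleotide supply genes were higher for 16 of 18 and lower for 0, with medians of 1.12 and 1.32. Rrm2, the regulated subunit of ribonucleotide reductase (chromosome 12, 24708241 to 24714146), was at 164 CPM (152 to 176) against 23.6 (21.4 to 25.9) in vehicle. In cisplatin it was at 231 CPM (213 to 251) against 20.5 (18.0 to 23.4), an 11.3-fold difference after 6.96-fold in vehicle. Tk1, thymidine kinase, was at 103 against 22.9 and 85.6 against 16.7 CPM. Unlike Tyms, a rule gene, these genes had no part in choosing the cells by their own counts.

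All 14 genes of chromatin assembly and maintenance methylation were higher, with medians of 1.182 and 1.498. Asf1b, a histone chaperone, was at 249 CPM (235 to 265) against 38.2 in vehicle and 308 CPM (287 to 330.1) against 33.0 in cisplatin. Uhrf1, which recruits DNMT1 to newly copied DNA, was at 95.8 against 16.9 and 70.1 against 12.2 CPM. Dnmt1 itself was at 187 against 112 and 145 against 63.1 CPM, a smaller fold (1.67 and 2.30) than that of Uhrf1 (5.66 and 5.75). Slbp, which binds the 3' stem loop of replication-dependent histone messages and is normally made in S phase, was at 616 against 240.4 and 937 against 269 CPM.

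Checkpoint and repair genes were higher for 18 of 25 and lower for 0, with medians of 1.102 and 1.058. Brca2, a mediator of homologous recombination, was at 67.6 against 21.2 CPM in vehicle and 30.4 against 8.78 in cisplatin. Brca1 was at 21.9 against 5.17 and 13.2 against 3.05 CPM. The repair genes named here were thus higher in S-phase cells of both libraries, with vehicle and cisplatin differing in level as given further on.

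Of the E2F and G1/S control genes, 16 of 28 were higher and 2 lower, with medians of 0.76 and 0.98. The lower ones were Ccnd2 and Cdkn2b, both at few counts in S-phase cells. Ccnd2, a D-type cyclin, was at 1.58 against 2.95 and 0.779 against 18.5 CPM. Cdkn2b, p15, was at 3.39 against 14.9 and 3.50 against 7.53 CPM. Over 22 settings of the processing the lower members of this list ranged from 0 to 3, with 0 at a floor of 100 UMIs. Activating and repressing E2F genes were both among the higher ones. E2f1, an activator, was at 136 against 52.2 and 128 against 37.0 CPM. E2f8, a repressor that acts in S and G2, was at 68.0 CPM (60.5 to 76.1) against 9.33 in vehicle and 57.2 CPM (48.3 to 67.3) against 7.44 in cisplatin. E2f7, its close relative, was at 50.8 against 10.2 and 30.8 against 5.11 CPM. Cdkn1b, p27, the inhibitor of cyclin E with CDK2, passed the 1.5-fold limit in neither direction, at 142 against 183 and 125 against 159 CPM. Rb1 (chromosome 14, 73183673 to 73325822) was at 27.6 against 16.3 CPM in vehicle and 16.0 against 12.3 CPM in cisplatin. The sources used here do not say which exons the floxed alleles lose, so counts near the 3' end of Rb1 check neither the deletion nor the labels.

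Inhibitors of the cell cycle were among the genes higher in the replicating cells. Cdkn1a, p21, which inhibits cyclin-dependent kinases and binds PCNA (chromosome 17, 29090976 to 29100727), was at 746 CPM (721 to 772) in vehicle S-phase cells and 327 CPM (319 to 335) in other cells. In cisplatin it was at 886 CPM (849.9 to 923) against 439 (427 to 452). Along the score its level went from 258 CPM in the lowest 50% of vehicle eligible cells to 819 CPM in the highest 5%, and from 414 to 983 CPM in cisplatin. Cdkn2a, the locus of p16 and ARF (chromosome 4, 89274471 to 89294653), was at 347 CPM (329.7 to 365) against 152 (147 to 158) in vehicle. In cisplatin it was at 207 CPM (189.9 to 225) against 60.4 (55.9 to 65.2). Gene counts do not separate its p16 and ARF transcripts.

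Leaving out predicted genes, including symbols ending in Rik, the naming rule took the 12 genes outside the 10 score genes with the highest ratio in the weaker of the libraries. They were Cdc6, Rrm2, E2f8, Asf1b, Pbk, Cenpm, Uhrf1, Tcf19, Fbxo5, Cdca7l, Crabp1 and Mxd3. Pbk, a mitotic kinase, was at 143 against 23.3 and 252 against 28.4 CPM, but higher still in mitotic cells, at 404 and 527 CPM. Fbxo5, Emi1, which restrains the anaphase-promoting complex so that S phase can proceed, was at 98.1 against 18.0 and 96.9 against 10.1 CPM. Tcf19, a G1/S-induced nuclear factor, was at 259 against 48.9 and 193 against 26.0 CPM, and lower in mitotic cells, at 96.5 and 76.6 CPM. Crabp1, a retinoic acid binding protein, has no known replication role and stands out in the list. It was at 239.7 CPM (226 to 255) against 49.2 (46.1 to 52.5) in vehicle and 229.7 CPM (212 to 249) against 16.6 (14.3 to 19.2) in cisplatin. It had a UMI in 265 vehicle and 187 cisplatin members, and the richest cell gave 1.79% and 2.71% of them. The gene listed as 2810417H13Rik, which encodes the PCNA-binding protein PCLAF, was outside the naming rule and chosen after its values were seen. It was at 623 against 87.2 CPM in vehicle and 686 against 53.2 CPM in cisplatin, and its log2 ratio of 2.82 in the weaker library lies above those of the 12.

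**Figure D2:**
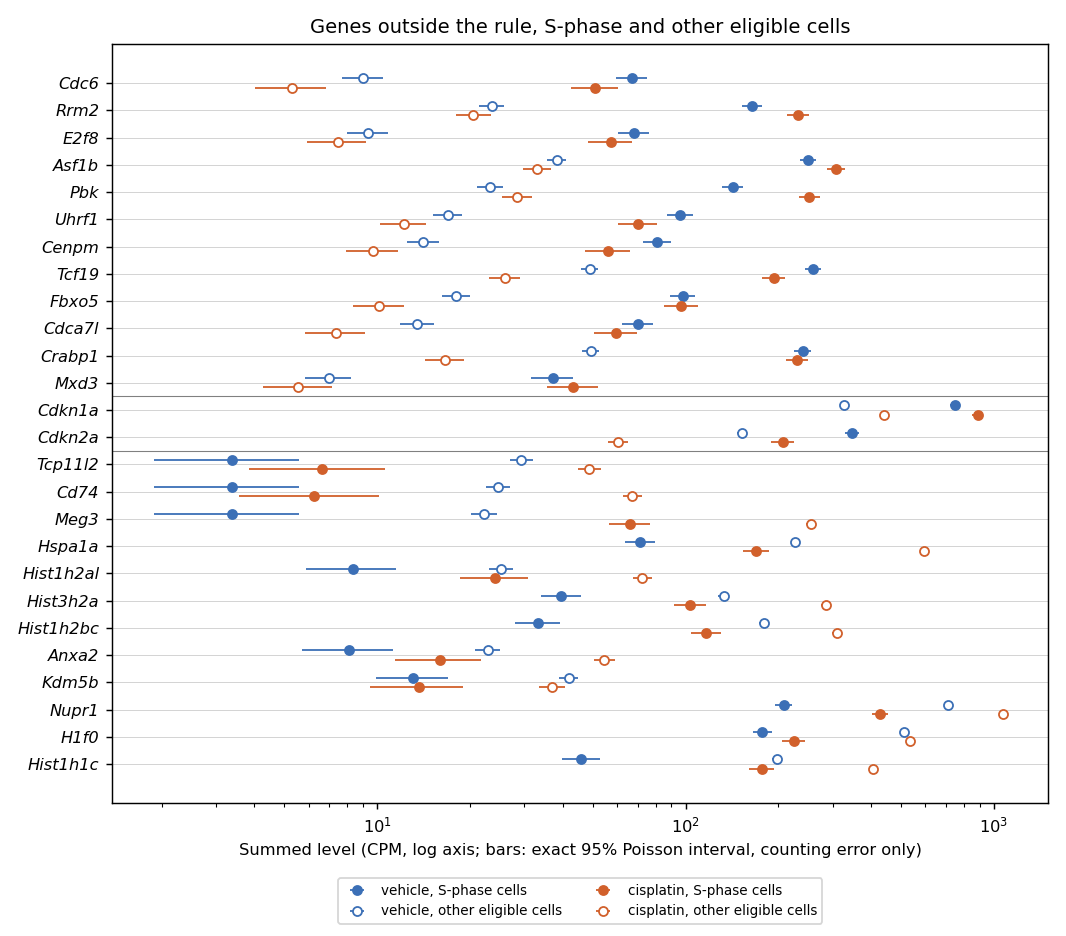
Summed levels of the 12 highest named genes outside the rule, predicted genes such as 2810417H13Rik left out (top), Cdkn1a and Cdkn2a (middle) and the 12 lowest genes (bottom) in S-phase cells (filled) and other cells (open) of the vehicle (blue) and cisplatin (orange) library. The x axis is CPM on a log axis and bars are exact 95% Poisson intervals; in every row the filled points of both libraries lie on the same side of the open ones.

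G2 and mitosis genes outside the rule were higher for 15 of 25 and lower for 0, with medians of 0.79 and 0.85, although the cells richest in 10 mitotic genes had been removed. Against those mitotic cells the same list lay at median log2 ratios of -3.54 and -3.50. Mki67, one of the mitotic genes used by the rule, was at 149 CPM in S-phase cells, 38.3 in other cells and 697 in mitotic cells of vehicle, and at 66.6, 11.7 and 223 CPM in cisplatin. S-phase cells lay between other and mitotic cells in these transcripts. Their place below mitotic cells was bound by the rule, which removed cells by their mitotic genes, and is given as a description. Members without any UMI of the 10 mitotic genes made up 4.88% in vehicle and 7.36% in cisplatin, against 23.0% and 36.8% of other cells, at the different depths given above.

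The genes lower in S-phase cells were led by Tcp11l2, Cd74, Meg3, Hspa1a, Hist1h2al, Hist3h2a, Hist1h2bc, Anxa2, Kdm5b, Nupr1, H1f0 and Hist1h1c. Histone genes formed the largest group among these 12. H1f0, the linker histone H1.0 that is typical of resting and differentiated cells, was at 178 CPM (165 to 190.4) against 513 (502 to 523) in vehicle and 224 CPM (206 to 243) against 535 (521 to 549) in cisplatin. Hist1h1c was at 45.9 against 197 CPM in vehicle and 177 against 406 in cisplatin. Hist1h2bc was at 33.2 against 179.6 and 117 against 309 CPM. Of the 16 measured genes with Hist1h or Hist2h symbols, 8 were lower in both libraries and 0 were higher, with medians of -0.91 and -0.71. Most messages of replication-dependent histones end in a stem loop without a poly(A) tail, and poly(A) priming then counts mainly the polyadenylated forms, so these counts do not measure the S-phase histone supply. Hist1h1b, under the limit of 50 UMIs in cisplatin and chosen after its values were seen, was at 15.6 against 9.28 CPM in vehicle and 5.06 against 1.97 CPM in cisplatin, and highest in mitotic cells at 191 and 22.6 CPM.

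Nupr1, Hspa1a and Kdm5b were among the 12 lowest genes. Nupr1, a stress-induced chromatin protein, was at 208 CPM (195 to 222) against 707 (695 to 719) in vehicle and 429 CPM (404 to 455) against 1074 (1055 to 1094) in cisplatin. Hspa1a, the inducible heat shock protein 70, was at 71.4 against 226 and 169.7 against 593 CPM. Kdm5b, a histone H3K4 demethylase, was at 13.1 against 41.9 and 13.6 against 36.8 CPM. Of the integrated stress response list 4 of 14 were lower and 0 higher, with medians of -0.36 and -0.07. Ddit3, CHOP, was among them at 27.3 against 72.7 and 54.9 against 86.5 CPM. Of the immediate early genes 4 of 16 were lower and 0 higher, with medians of -0.53 and -0.43, and 0 of 16 were lower when the cells were chosen on counts thinned to 3000 UMIs. This list is sensitive to tissue dissociation, to which all cells of a library were exposed together. Cd74, the MHC class II invariant chain, was at 3.39 against 24.7 and 6.23 against 67.2 CPM. Macrophage markers, whose cells carry Cd74, summed to 12.2 against 37.6 CPM in vehicle and 12.8 against 39.9 CPM in cisplatin, and their part in the Cd74 difference was not tested.

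Neuroendocrine identity differed little between the classes. None of 22 measured neuroendocrine genes was higher or lower in both libraries, with medians of -0.10 and -0.12. Chga, chromogranin A, was at 469 against 375 and 382 against 364 CPM. In the MYC and ribosome biogenesis list 1 of 17 genes was higher (Nop56) and 2 were lower (Myc and Polr1b). Myc was at 17.4 against 26.5 and 22.6 against 38.5 CPM. Interferon genes were higher for 0 and lower for 1 of 16, and hypoxia and glycolysis genes higher for 1 and lower for 1 of 16. The background for these counts is 9.07% higher and 4.72% lower.

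The replication lists climbed gradually along the score, without a step at the limit. Licensing genes summed to 405 CPM in the lowest 50% of vehicle eligible cells, 625 CPM from 50 to 70%, 900.4 CPM from 70 to 85%, 1182 CPM from 85 to 95% and 1423 CPM in the highest 5%. In cisplatin the same bins gave 367, 489.8, 796, 1128 and 1271 CPM. The cells just below the limit, from 70 to 85%, already stood more than midway between the lowest bin and the members of the bin above. Chromatin assembly genes had the steepest course, from 905 to 3357 CPM in vehicle and from 704 to 3275 CPM in cisplatin. Nupr1 ran the other way, but unevenly. Over the same bins it was at 997, 359, 358, 245 and 136 CPM in vehicle and at 1276, 714, 946, 513 and 249 CPM in cisplatin. Immediate early genes ran from 14274 to 7857 CPM and from 18172 to 11896 CPM. The median UMIs per cell went up along the same bins, from 7207 to 10797 in vehicle and from 4546 to 6512 in cisplatin, and their part in these courses was not tested.

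**Figure D3:**
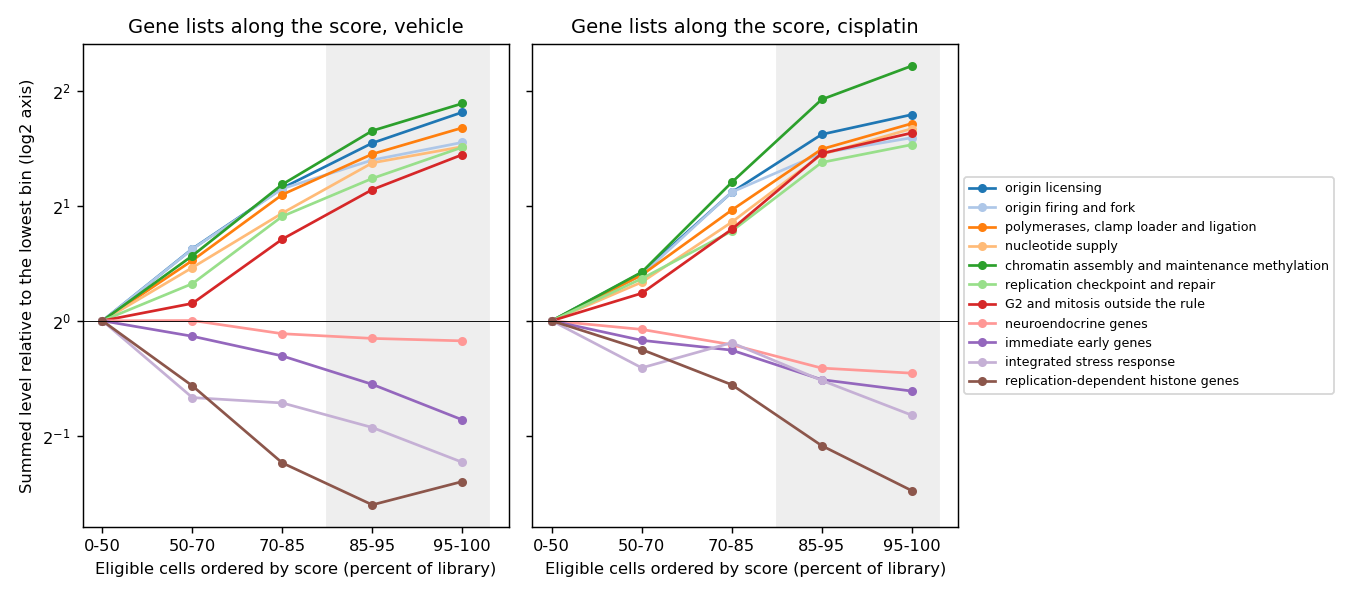
Summed CPM of gene lists in eligible cells ordered by score, in 5 bins, relative to the lowest bin (log2 y axis), for vehicle (left) and cisplatin (right); the shaded bins from 85% upward are the S-phase cells and lists exclude the rule genes. Replication lists climb to the right, and neuroendocrine, immediate early, stress and histone lists lie at or below the lowest bin, as in licensing from 405 to 1423 CPM and from 367 to 1271 CPM.

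Members were split by UMIs of the 10 mitotic genes per 10000 at limits of 2 and 6, set after seeing the data, which gave 56, 140 and 234 members in vehicle and 65, 140 and 162 in cisplatin. Mcm6, Mcm2, Mcm4, Mcm5 and Tyms are rule genes, so their levels in members are bound by the choice of the cells and are given as a description. The helicase gene Mcm6 was highest in members with the fewest mitotic transcripts, at 403 CPM (347 to 467), then 328, then 239 CPM (220.1 to 258) in vehicle. In cisplatin it stood at 347 CPM (292 to 409.6), 259 and 229 CPM (202 to 258). Mcm2 went from 361 to 275 CPM in vehicle and from 290.1 to 218 CPM in cisplatin, and Mcm4 from 134 to 104 CPM and from 149 to 97.4 CPM, with overlapping intervals of the first and last group for Mcm4 in both libraries and for Mcm2 in cisplatin. The other helicase genes did not share this order. Mcm5 was at 176 CPM in the first and 186 CPM in the last group of vehicle, and at 149 and 166 CPM in cisplatin. Outside the rule, Mcm3 was at 172 and 187 CPM and at 154 and 142 CPM, and Mcm7 at 180.5 and 230.1 CPM and at 179 and 185 CPM, with overlapping intervals for each of these. The licensing list as a whole summed to 1043 CPM (950.5 to 1142) and 1297 CPM (1254 to 1342) in vehicle, and to 1116 CPM (1015 to 1224) and 1246 CPM (1182 to 1312) in cisplatin.

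Rrm2, Asf1b, Tk1, Slbp and Cdc6, all outside the rule, were higher in members with more mitotic transcripts. Rrm2 was at 49.0 CPM (30.7 to 74.2) in members with the fewest mitotic transcripts, 85.6 in the middle and 227 CPM (209 to 247) in those with the most in vehicle, and at 59.5 CPM (38.1 to 88.5), 150.3 and 361 CPM (327 to 397) in cisplatin. Asf1b went from 93.6 to 318 CPM and from 183 to 391 CPM. Tk1 went from 40.1 to 126 CPM and from 57.0 to 106 CPM. Slbp went from 432 to 664 CPM in vehicle and from 721 to 1089 CPM in cisplatin. Cdc6, a licensing factor, went from 33.4 to 78.4 CPM and from 24.8 to 68.9 CPM. E2f1 held level, at 145, 139 and 133 CPM in vehicle and 129, 127 and 128 CPM in cisplatin. The median UMIs also differed along this split, from 8474 to 10994.5 in vehicle and from 5917 to 6652 in cisplatin, and the median score, from 24.0 to 28.4 and from 24.9 to 29.5, and their part was not tested.

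**Figure D4:**
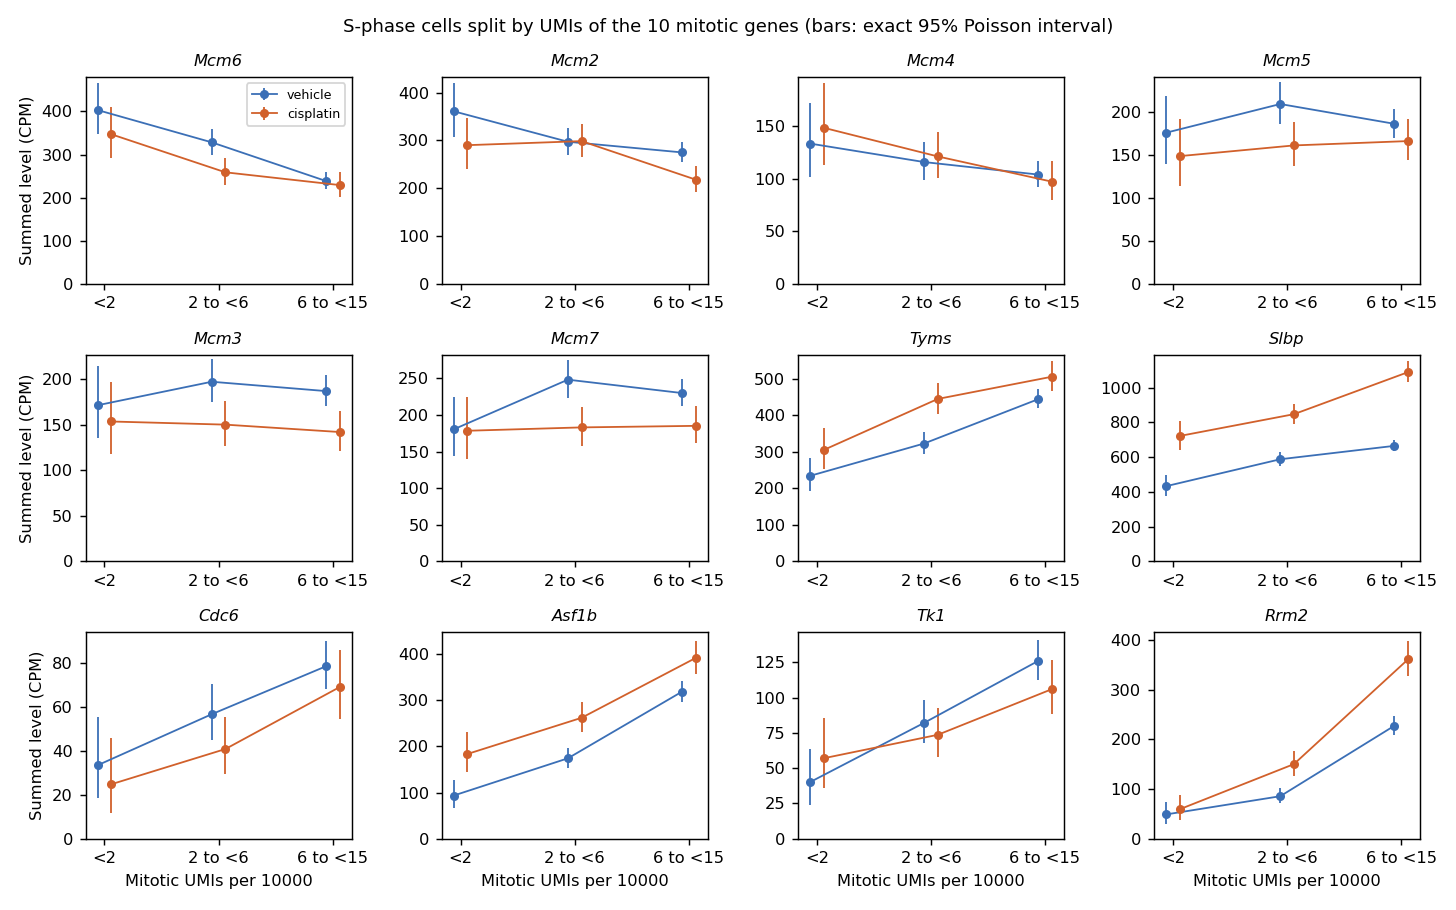
Summed CPM (y axes, from 0) of 12 genes in S-phase cells split by UMIs of the 10 mitotic genes per 10000 (x axis), for vehicle (blue) and cisplatin (orange), with exact 95% Poisson intervals. Mcm6, Mcm2 and Mcm4 lie lower in the last group than in the first, as Mcm6 from 403 to 239 CPM in vehicle, Mcm5, Mcm3 and Mcm7 have overlapping intervals, and the remaining genes lie higher, as Rrm2 from 49.0 to 227 CPM.

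The share of S-phase cells cannot differ between the libraries, because the rule fixes it. At the vehicle limit of 21.1 in both libraries, 430 of 2869 vehicle eligible cells (14.99%; 13.7 to 16.3%) and 343 of 2449 cisplatin eligible cells (14.0%; 12.7 to 15.4%) scored as high, with overlapping intervals. With each cell thinned to 3000 UMIs, leaving out 128 and 280 shallower cells, the limit was set anew on the vehicle library, at 23.3. The shares were then 15.03% (13.7 to 16.4%) in vehicle and 13.7% (12.3 to 15.2%) in cisplatin. At both depths the vehicle share follows from how the limit was set. With the 785 and 1021 mitotic cells added to the denominator only, the full-depth shares were 11.8% (10.7 to 12.9%) in vehicle and 9.88% (8.91 to 10.9%) in cisplatin. Mitotic cells at or above their own library's limit, 96 in vehicle and 150 in cisplatin, were not counted in these shares.

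Cisplatin and vehicle S-phase cells were then compared with each other. At 1.5-fold, among 9790 genes with 50 or more UMIs over both libraries, 463 were higher in cisplatin (4.73%) and 2085 were lower (21.3%). This imbalance depends on the scaling: the median log2 ratio of all genes was -0.17 with CPM, and with TMM scaling (median -0.03) 833 were higher and 1414 lower. Median-of-ratios scaling (median 0.02) gave 1000 and 1247. The higher share of all calls was 18.2% with CPM, 37.1% with TMM and 44.5% with median-of-ratios scaling. Each value compares these libraries and not the treatments, since cisplatin, animal and library cannot be told apart.

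Most genes that differed did so in other cells too. Of the 463 higher genes 246 were also higher in the other cells (53.1%), and of the 2085 lower genes 1265 were also lower (60.7%), while 4 and 0 lay past the limit in the opposite direction. In other cells 363 genes were higher and 1886 lower. The median log2 ratio of all genes was -0.17 in both classes with CPM, and the part of this common shift in the overlap was not tested. Igf2, insulin-like growth factor 2, was at 256 CPM (241 to 271) in vehicle and 29.97 CPM (23.7 to 37.5) in cisplatin S-phase cells, with 188 and 27.6 CPM in other cells. Slfn9, of the Schlafen family, was at 181 CPM (169 to 194) and 41.7 CPM (34.1 to 50.3). It was also a gene of the S-phase class in each library, since other cells held 40.5 and 7.17 CPM. Rprm, reprimo, a mediator of arrest in G2, was at 1.13 CPM in vehicle S-phase cells and 49.8 CPM (41.6 to 59.2) in cisplatin S-phase cells. In other cells it was at 1.37 and 84.1 CPM. Meg3, a noncoding RNA of the imprinted Dlk1 region, was at 3.39 and 66.2 CPM in S-phase cells and 22.2 and 255 CPM in other cells, so it was lower in S-phase cells of either library and higher in cisplatin in either class.

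The medians of the replication lists lay near that of all genes or below it. Licensing genes were higher in cisplatin for 1 and lower for 1 of 14, with a median log2 ratio of -0.18. Polymerase genes were higher for 1 and lower for 2 of 28, with a median of -0.25. Nucleotide supply genes were higher for 0 and lower for 1 of 18, with a median of -0.15. Checkpoint and repair genes were higher for 0 and lower for 7 of 26, with a median of -0.35, against 21.3% lower over all genes. With TMM scaling 6 of these 26 were lower and 1 higher. Brca2 was at 67.6 CPM (60.1 to 75.7) in vehicle and 30.4 CPM (24.0 to 37.9) in cisplatin. Rev1 and Rev3l, of translesion synthesis across damaged bases, were at 64.6 and 31.9 CPM and at 68.5 and 36.6 CPM. Rad18, which starts translesion synthesis by marking PCNA with ubiquitin, was at 35.0 CPM (29.7 to 41.0) and 17.1 CPM (12.4 to 23.0). Among the rule genes Clspn differed most, at 177 CPM (165 to 189.7) in vehicle and 98.5 CPM (86.7 to 111) in cisplatin, while the rule held the sum of the 10 genes high in both.

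Chromatin assembly genes were higher for 1 and lower for 4 of 14, with a median of -0.38, and lower for 2 with TMM scaling. Atad2, a chromatin ATPase, was at 165 and 89.1 CPM. Slbp was the higher one, at 616 CPM (593 to 639.9) and 937 CPM (899.5 to 975), a ratio of 1.52 that lies just past the limit. In the E2F and G1/S list 1 gene was higher and 4 were lower of 24, and Cdkn2a was among the lower, at 347 and 207 CPM. With TMM scaling 2 of these 24 were lower. Cdkn1a lay within the limit, at 746 and 886 CPM. Among G2 and mitosis genes 2 of 22 were higher and 1 lower, with a median of 0.12, against 5 and 0 with TMM scaling.

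The integrated stress response list leaned the other way. Of its measured genes 6 of 11 were higher in cisplatin S-phase cells and 0 lower, with a median of 0.65 against 0.12 in other cells, beside 4.73% higher over all genes. Ddit3 was at 27.3 CPM (22.7 to 32.7) and 54.9 CPM (46.2 to 64.7). Phgdh, the first enzyme of serine synthesis, was at 23.7 CPM (19.4 to 28.7) and 47.5 CPM (39.4 to 56.7) in S-phase cells, with 18.8 and 17.7 CPM in other cells. Atf3 was at 177 and 413 CPM. With TMM scaling the list held 7 higher and 0 lower. Interferon genes were higher for 6 and lower for 1 of 16, but several rested on few cells: for Ifit3 the richest cell gave 40.9% of its UMIs in cisplatin S-phase cells. With members chosen on thinned cells 2 were higher and 3 lower of 15. Immediate early genes were higher for 6 and lower for 3 of 16 (9 and 3 with TMM scaling), with Dusp1 at 397 and 786 CPM and Fosb at 171 and 58.0 CPM.

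Hes1, a target of Notch signalling, was higher in cisplatin in both classes and higher in S-phase than in other cells. It was at 37.5 CPM (32.0 to 43.7) against 27.5 (25.2 to 29.9) in vehicle and 150.3 CPM (136 to 166) against 72.2 (67.3 to 77.4) in cisplatin. After thinning to 3000 UMIs, cells with a Hes1 UMI made up 9.67% of S-phase cells (7.03 to 12.9%) and 5.91% of other cells in vehicle, and 27.6% (23.0 to 32.7%) and 15.5% in cisplatin. Without thinning the shares were 24.7% and 13.6% in vehicle and 42.8% and 22.6% in cisplatin. The mitotic cells held 39.7 and 121 CPM.

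For a few genes the ratio of cisplatin to vehicle was unlike in S-phase and other cells. Crabp1 was at 239.7 and 229.7 CPM in S-phase cells, while in other cells it was at 49.2 and 16.6 CPM, a difference of the log2 ratios of 1.45. Ccne1 showed the same order, at 177 and 126 CPM against 32.5 and 10.8 CPM, but as a rule gene its level in S-phase cells is bound by the choice of the cells. Aard was at 6.33 CPM (4.20 to 9.14) and 33.9 CPM (27.1 to 41.8) in S-phase cells and at 2.43 and 3.68 CPM in other cells. Klk1, a kallikrein protease, differed mainly outside the class, at 146 and 204 CPM in S-phase cells and 136 and 619 CPM in other cells. One cell gave 37.3% of its UMIs in vehicle S-phase cells. Scgb1a1, the club cell secretoglobin, was at 141 and 487 CPM in S-phase cells and 1153 and 467 CPM in other cells. Its UMIs lay in 233 vehicle and 318 cisplatin members, and what part free RNA from club cells had was not tested. Ccl2, a monocyte chemokine, was at 2.71 and 125 CPM in S-phase cells, but 83.8% of the cisplatin UMIs came from 1 cell and without it the level was 20.2 CPM. None of these differences was tested.

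**Figure D5:**
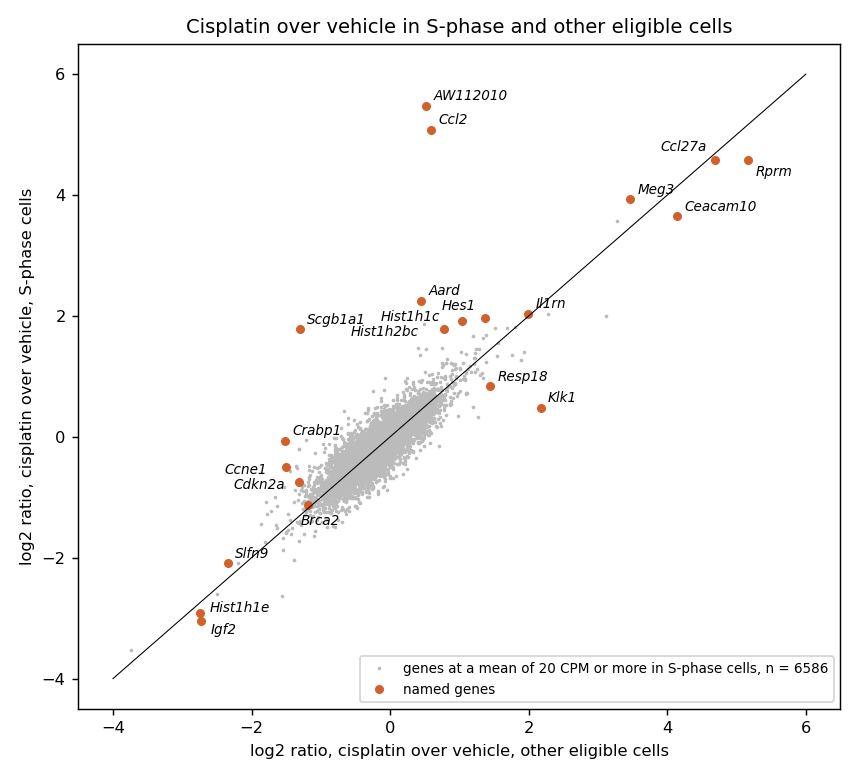
Log2 ratio of cisplatin over vehicle in S-phase cells (y axis) against the same ratio in other cells (x axis) for genes with a mean of 20 CPM or more in S-phase cells (grey), with named genes in orange and the line of equal ratios. Most genes follow the line; Crabp1 (-0.06 against -1.51), Aard (2.25 against 0.45) and Scgb1a1 (1.78 against -1.30) lie above it and Klk1 (0.48 against 2.18) below it.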

How the data were processed

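Single-cell RNA was measured in 1 vehicle and 1 cisplatin library. The authors deposited whole-number UMI counts for each gene and barcode, without normalization, per the file headers and the values. Cell Ranger 2.0.2 and mm10 are named, without their roles, in the submitters' processing notes. The members and gene lists were chosen with earlier results of these data known.

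Library totals were 32519922 UMIs in vehicle and 28777462 in cisplatin. S-phase cells held 4426219 and 2568968 UMIs, other cells 18966728 and 11156049. Per gene, UMIs were summed over the cells of a class, scaled to CPM and compared as log2 ratios with 1 CPM added. Calls needed a 1.5-fold difference and 50 UMIs. Intervals are exact (Poisson for sums, Clopper-Pearson for shares), at 95%, and a count of 0 was read as up to 3 counts. No doublet caller was run. Gene coordinates are GENCODE M21 (GRCm38) and promoters RefSeq (GRCm38.p6), 1-based.

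Named genes were the 10 rule genes, Rb1, Hes1, Mki67, Chga and Cdkn1a. The rule also took the 12 highest and 12 lowest ratios of each comparison at a mean of 20 CPM, the 8 highest and 8 lowest differences between classes at 50 CPM, and up to 4 members per list and comparison. Other names were chosen after their values were seen: other members of the lists, Slbp, Cdkn1b, Hist1h1b and 2810417H13Rik. The ranked part left out predicted genes, Xist, and mitochondrial, ribosomal protein, haemoglobin and Y-linked genes. Some genes that this rule takes, 1 list and some other items are not reported here.

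Alternatives changed the share of cells kept, score genes, mitotic limit, filters, doublet and marker removal, scaling (TMM in edgeR 4.0.16, median-of-ratios in DESeq2 1.42.0, R 4.3.3), pseudocount, floor and fold. Python 3.11.15, numpy 2.4.6, scipy 1.17.1 and pandas 2.3.3 were used. On simulated data, 2-fold changes were called for 99.5% of 200 genes among 11129 in S-phase over other cells and 98.5% of 200 among 9711 in cisplatin over vehicle. For 1.5-fold changes, at the limit itself, this was 25.5% (among 11118 genes) and 55% (among 9713). Unchanged genes were called for 0.210% and 3.06% beside the 2-fold changes. The simulated sums were Poisson draws from a single shared mean profile, with changes planted in genes at 20 CPM or more. They hold no spread among cells, animals or libraries, so these rates cover counting error only and are no error rate for the calls above.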

Additional observations from a re-analysis of the deposited data

Results flagged for a closer look

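AW112010, an interferon-inducible transcript of immune cells, lay in opposite directions in the libraries' S-phase cells. The log2 ratio over other cells was 3.24 in cisplatin (93.8 against 9.05 CPM) and -1.72 in vehicle (1.13 against 6.01 CPM), and the difference between the libraries was not tested. In cisplatin S-phase cells its UMIs came from 16 cells, and 1 of them gave 164 UMIs, or 68.0%.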

How the results depend on the processing

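The 4 counts of genes past 1.5-fold, 979 higher and 509 lower in S-phase cells and 463 higher and 2085 lower in cisplatin, moved most with the fold and the floor. At 2-fold they were 398, 104, 136 and 611, and without a floor 1637, 1942, 2208 and 4924. Scaling moved the treatment counts, to 833 higher with TMM and to 1000 higher and 1247 lower with median-of-ratios size factors. Scoring on the 4 Mcm genes and Pcna left 256 genes lower in S-phase cells. Of 11234 values of single genes under alternatives, 8 that lay past 1.5-fold at the settings used above changed sign. The rest were sorted by size alone, and 10596 moved by no more than their counting error and 630 by more. Sign changes of values within 1.5-fold are among these and were not counted apart. Iapp in cisplatin S-phase over other cells changed to -0.19 with thinned cells, -0.26 without Tyms, -1.02 with the Mcm genes and Pcna, -0.36 at a mitotic limit of 30 and -0.19 at 5% mitochondrial UMIs, and 1 cell gave 45.7% of its UMIs. Cd74, cisplatin over vehicle, was -0.31 with the Mcm genes and Pcna. Bub1b in vehicle was -0.044 at a mitotic limit of 10, and Ccl2 in vehicle -0.50 without its richest cell, an alternative chosen after seeing the data that gave counts of 942, 580, 441 and 2136. The causes were not tested. In each of 22 settings the 6 replication lists had 0 members lower in S-phase cells, while the higher members ranged from 6 to 11 in licensing and from 8 to 14 in chromatin assembly. Of the cells chosen on thinned counts, 77.9% in vehicle and 85.5% in cisplatin were also members at full depth. No paired analysis was possible because each group has 1 library. Libraries, animals and treatment cannot be told apart, and Orc1 and Mcm10 lay under the limit of 50 UMIs in a library.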
